A study of Mus musculus with 2 samples.

Results

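The chaperonin TRiC, also called CCT, is built from the products of 8 genes, Tcp1, Cct2, Cct3, Cct4, Cct5, Cct6a, Cct7 and Cct8. These genes were taken by name, and all 8 were found among 43346 annotated genes in the deposited tables. The RNA came from primary megakaryocyte-erythroid progenitors (MEP) of C57BL/6J mice, labelled female, adult and 5 weeks old, and the labels describe the cells as negative for CD34. It was poly(A) selected and sequenced as paired ends in 2 libraries, biological replicates 1 and 2 of a single group, so there is no treatment, genotype or second cell type to compare. Both carry the same donor identifier and separate biosample records, and nothing in the labels says whether they came from separate animals. Differences between them may therefore be technical.

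TRiC is a barrel of stacked rings in the cytosol, each ring holding every subunit once in a fixed order. It closes over unfolded proteins and releases them as ATP is spent. Actin and tubulin are its best known clients, and prefoldin hands it newly made chains. Megakaryocytes and red cell precursors both depend on these proteins, the former for the microtubule coil of platelets and the latter for the membrane skeleton.

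Replicate 1 held 79539457 estimated counts over the annotated genes and replicate 2 held 65305321. A gene at 0 counts could thus lie at up to 0.0377 and 0.0459 CPM (counts after scaling each library to 1000000), counting error only. The subunits took 58970 and 52145 counts, 0.0741% (95% Wilson interval 0.0735 to 0.0747) and 0.0798% (0.0792 to 0.0805) of each library. Erythroid markers were detected for 7 of 8 genes, summing to 441 and 537 TPM (abundance corrected for length, adding up to 1000000 in each library). Megakaryocyte markers were detected for 7 of 8, at 266 and 425 TPM, with Gp6 at 0 counts in both libraries. Granulocyte and monocyte markers were detected for 8 of 8 and summed to 31100.5 TPM in replicate 1 against 17027 in replicate 2. B cell markers, 6 of 7 detected, summed to 86.1 and 34.8 TPM, with Ms4a1 at 0 in replicate 2, and of the T and NK cell markers 1 of 6 was detected, Nkg7 at 34.3 and 17.3 TPM. The other 5 summed to 1.00 and 1.55 TPM. The part that cells bearing such markers play in the values below was not tested.

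All 8 subunit genes were expressed, and by TPM the highest, Cct4, was 19.9 times the lowest in replicate 1 and 23.1 times in replicate 2. The ratio rested on Cct4 and on the scale: on coding transcripts alone, where Cct4 was the lowest, the highest to lowest ratio was 9.81 and 10.1. Cct4, the delta subunit, which is known to form rings by itself when made alone, was listed at 545 TPM in replicate 1 and 632 in replicate 2 (mean 589 ± 61.6, SD, n = 2). Cct8, the theta subunit, stood at 101 and 109 TPM (105 ± 6.05), and Cct6a, the zeta subunit found in most tissues, at 84.8 and 107 TPM (95.9 ± 15.7). These 3 genes stood above the other 5 in both libraries.

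Cct7, the eta subunit, measured 43.0 and 47.5 TPM (45.2 ± 3.17). Cct5, the epsilon subunit, which like Cct4 is known to form rings alone, measured 40.0 and 41.4 TPM (40.7 ± 0.990). Cct3, the gamma subunit, measured 29.0 and 37.7 TPM (33.4 ± 6.11). The authors' TPM intervals of Cct3 and Cct5 overlapped in replicate 2 and were separate in replicate 1. Tcp1, the alpha subunit, which gave the family its name and was found in the mouse t complex, measured 34.8 and 30.7 TPM (32.8 ± 2.91). Cct2, the beta subunit, was lowest at 27.4 TPM in both libraries (27.4 ± 0.0283). The median over the subunits was 41.5 and 44.4 TPM, where the median of 10061 protein-coding genes detected in both libraries, meaning at a TPM of 1 or more, was 16.4.

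**Figure D1:**
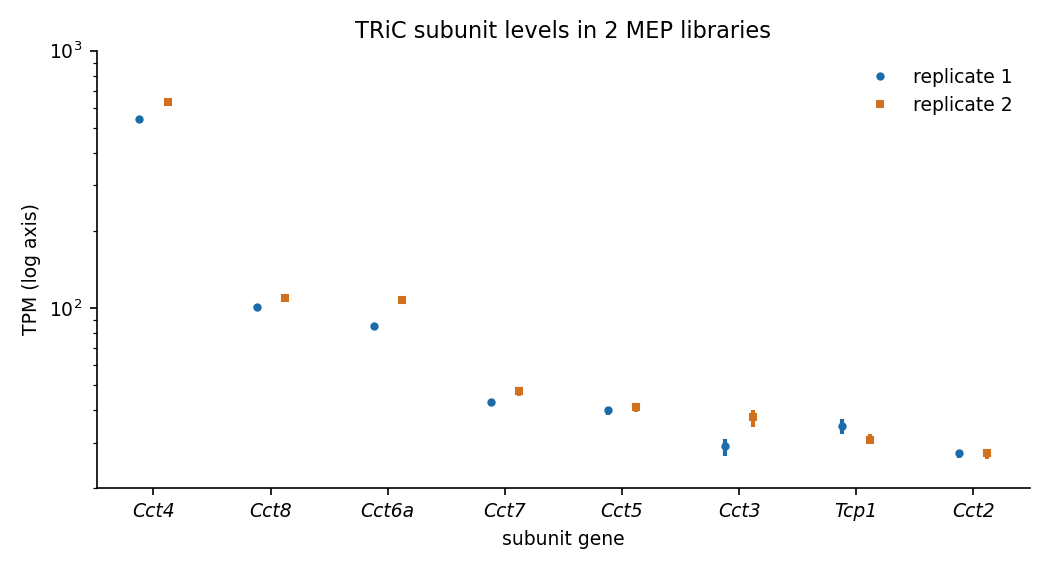
TPM on a log axis for each subunit gene in replicate 1 (circles) and replicate 2 (squares), with the authors' TPM intervals as vertical lines where they are longer than the symbol. Cct4 lies at 545 and 632 TPM, Cct8 and Cct6a between 84.8 and 109, and the other 5 genes between 27.4 and 47.5.

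Of the 28 pairs of subunits, 24 were apart, meaning that 1 gene was higher each time and its interval lay clear of the other's in both libraries. The intervals are the authors' and cover quantification error within 1 library, and no p-value was computed, since an exact sign test over 2 libraries cannot go below 0.5. The 4 pairs not apart were Cct8 with Cct6a, Cct5 with Cct3, Cct3 with Tcp1 and Cct3 with Cct2. Cct3 with Tcp1 changed direction between the libraries, with log2 ratios of -0.26 and 0.29. Among neighbours in the order, Cct4 over Cct8 was the widest step, at a log2 ratio of 2.49 ± 0.07 (SD, n = 2), followed by Cct6a over Cct7 at 1.08 ± 0.14. Cct7 over Cct5, 0.15 ± 0.07, and Tcp1 over Cct2, 0.26 ± 0.13, were apart but narrow. The share of pairs apart among other genes was not computed, so the count of 24 has no background. On coding transcripts alone Cct4 was the lowest, at 10.2 and 10.7 TPM, so every pair with Cct4 had the other direction. Pairs were not called on that scale.

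The TPM of Cct4 (chr11:22990519-23003780 on GRCm38, plus strand) came almost whole from short transcripts of its 5′ part. Cct4-205, 581 bases long, held 346 and 379 TPM, 63.4% and 59.9% of the gene, and Cct4-203, 465 bases long, held 184 and 234 TPM, 33.7% and 37.1%. Both are annotated by GENCODE as targets of nonsense-mediated decay, the pathway that destroys messages with an early stop. The longest coding transcript, Cct4-204, with 14 exons and 2484 bases, held 7.97 and 10.5 TPM, and the other coding transcript, Cct4-201, 2.25 and 0.23 TPM.

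The annotated sequences below show how these transcripts differ, 5′ to 3′, as GENCODE M21 gives them. In Cct4-204 the capitals are exon 4, of 109 bases (chr11:22995930-22996038), between 30 bases of each neighbouring exon. In Cct4-205 that exon is absent, and the capitals are the 6 bases on each side of the junction that replaces it. In Cct4-203 the capitals are the 50 bases of the first intron (chr11:22990881-22990930) that its annotated reading frame enters after exon 1.
Cct4-204: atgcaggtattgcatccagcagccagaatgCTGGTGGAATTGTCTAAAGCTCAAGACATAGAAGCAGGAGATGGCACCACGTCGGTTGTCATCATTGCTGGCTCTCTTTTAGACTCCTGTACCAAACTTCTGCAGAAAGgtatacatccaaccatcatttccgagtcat
Cct4-205: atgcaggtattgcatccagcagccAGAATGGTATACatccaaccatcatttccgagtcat
Cct4-203: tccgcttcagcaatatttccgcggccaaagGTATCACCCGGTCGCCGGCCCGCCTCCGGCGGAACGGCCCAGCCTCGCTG

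Along Cct4-204, counted from its 5′ end, Cct4-205 covers bases 132 to 821 without exon 4, and Cct4-203 covers bases 108 to 505. Together they took 14043 of 15950 estimated counts in replicate 1 and 12725 of 14564 in replicate 2, 88.0% and 87.4%. Reads in exons that the transcripts share were divided among them by the authors' estimate, and positions of reads were not analysed here. The effective length of Cct4, the length by which its counts were divided, was 442 and 436 bases, against 2200.4 and 2201 for Cct8.

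**Figure D2:**
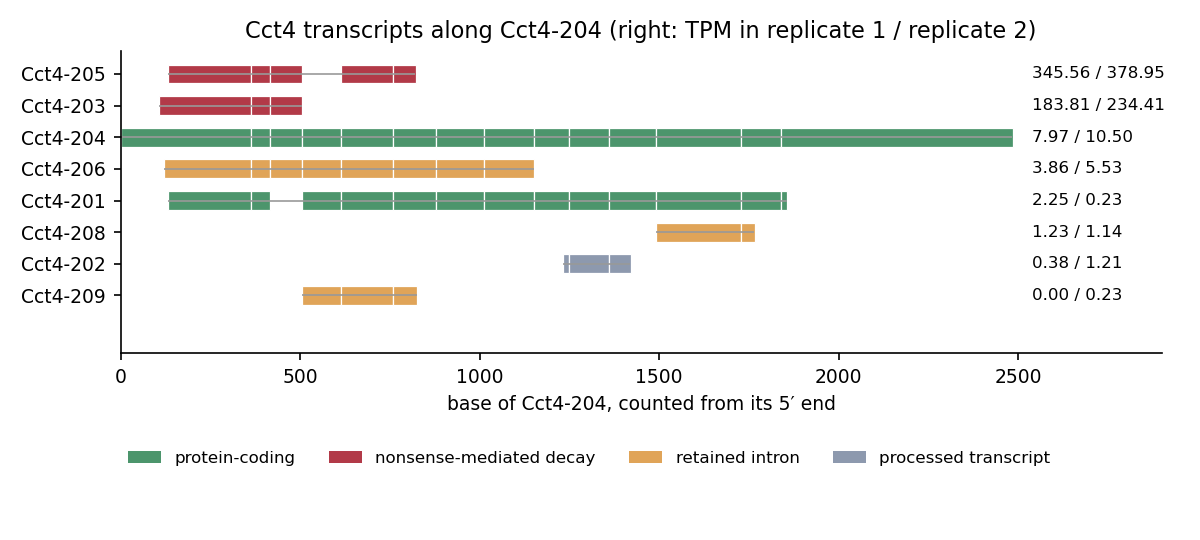
Exons of the Cct4 transcripts with a TPM above 0, placed along the bases of Cct4-204 and coloured by annotated type, with TPM in replicates 1 and 2 at the right; bases that Cct4-204 lacks are left out. The transcripts at 346 and 379 TPM and at 184 and 234 TPM end at or before base 821, while the full-length one stands at 7.97 and 10.5.

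Coding transcripts held 1.88% and 1.70% of Cct4 TPM and 9.14% and 9.04% of its counts. Among 5623 protein-coding genes at 5 TPM or more in both libraries with at least 2 transcripts, 5.89% had under 10% of TPM in coding transcripts in both libraries. Of the subunits, 5 were in that set, and Cct4 was the 1 below 10%. The median coding share over the set was 89.3%.

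Cct3 (chr3:88297116-88321767, plus strand) was, like Cct4, led by a transcript other than its coding ones. Cct3-203, a retained intron transcript of 472 bases at the 3′ end, held 12.5 and 23.2 TPM, 43.2% and 61.5% of the gene, and 276 and 401 counts. The coding transcript Cct3-201 held 10.2 and 7.15 TPM but 1242 and 693 counts, the most of any Cct3 transcript. The sequence of Cct3-203 is shown from its first base, with the 19 intronic bases it keeps ahead of exon 13 of the 14 in Cct3-201 (chr3:88320995-88321013) in capitals.
Cct3-203: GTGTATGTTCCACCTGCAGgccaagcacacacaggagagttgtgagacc
Its other bases lie in exons 13 and 14, which Cct3-201 also holds. By TPM the gene was higher in replicate 2, while coding transcripts alone gave 15.2 TPM in replicate 1 and 13.2 in replicate 2.

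Tcp1 (chr17:12915701-12925067, plus strand) was led by the coding Tcp1-209, with 76.3% and 91.7% of its TPM. The difference lay with Tcp1-210, a retained intron transcript of 578 bases, at 5.43 TPM in replicate 1 and 0 in replicate 2. On coding transcripts alone Tcp1 measured 27.5 and 29.1 TPM, so its order between libraries turned. Cct5 (chr15:31590800-31601804, minus strand) was divided between 2 coding transcripts, Cct5-201 with 73.5% and 66.1% and the shorter Cct5-205 with 24.5% and 29.2%. Cct8 (chr16:87483326-87495873, minus strand) had 97.0% and 97.3% in Cct8-201. Cct2 (chr10:117051001-117063814, minus strand), Cct6a (chr5:129786998-129846371, plus strand) and Cct7 (chr6:85451514-85468475, plus strand) each had 1 transcript in the files. GENCODE M21 types Cct6a as a processed transcript, whereas RefSeq lists it as protein-coding. Its single transcript was kept among the coding ones.

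**Figure D3:**
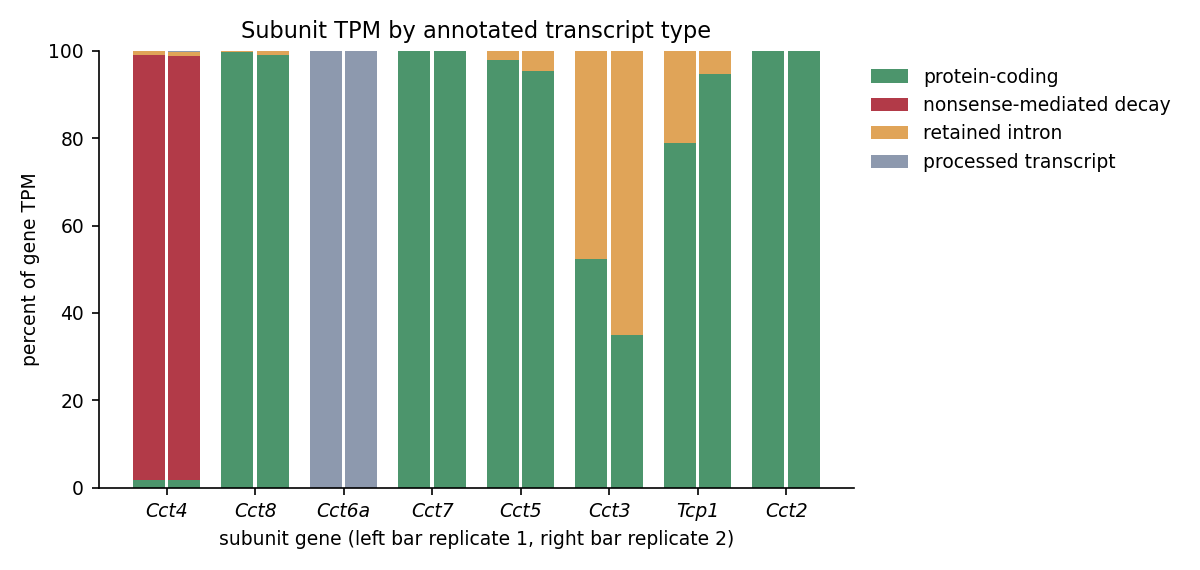
Percent of each subunit's TPM by annotated transcript type, with replicate 1 on the left and replicate 2 on the right of each pair of bars. Protein-coding transcripts hold 1.88% and 1.70% of Cct4 and 52.4% and 35.1% of Cct3, and Cct6a is the gene typed as a processed transcript.

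The place of Cct4 among the subunits depended on which transcripts were counted. On coding transcripts alone it was the lowest, at 10.2 and 10.7 TPM (10.5 ± 0.361), below Cct3 at 14.2 ± 1.42 and Cct2 at 27.4 ± 0.0283 TPM. Cct8, at 104 ± 5.52, was then the highest. On counts per length, computed as CPM per kilobase of the longest coding transcript, Cct4 measured 80.7 and 89.8, close to Cct8 at 76.9 and 81.2. On that scale Cct6a followed at 64.4 and 78.9, Cct7 at 33.7 and 36.2, and Cct5 at 25.9 and 24.5. Tcp1 measured 22.6 and 22.3, Cct2 21.2 and 20.5, and Cct3 was lowest at 12.7 and 12.6 CPM per kilobase. Cct8, Cct6a, Cct7 and Cct5 kept their order among themselves on all 3 scales. For counts per length Cct6a was divided by its only transcript, of 1599 bases and not typed as coding, and Cct7 by 2452 bases. In CPM, without division by length, Cct6a stood at 103 and 126 and Cct7 at 82.7 and 88.7.

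**Figure D4:**
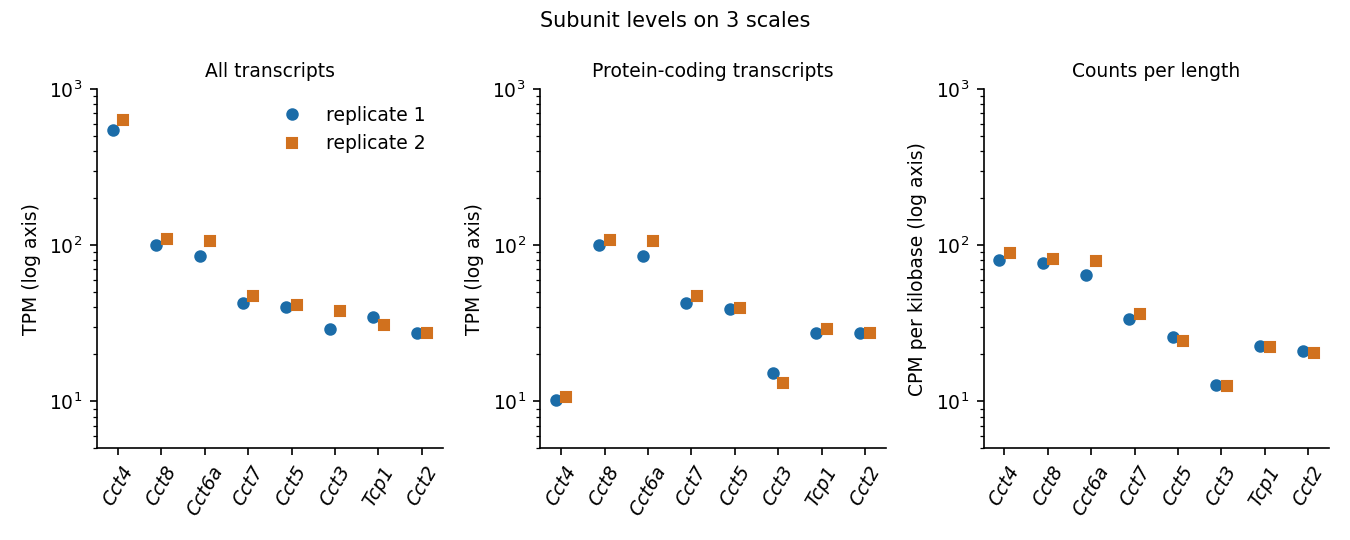
The same 8 genes on 3 log scales: TPM of all transcripts, TPM of protein-coding transcripts, and CPM per kilobase of the longest coding transcript, with replicate 1 as circles and replicate 2 as squares. Cct4 moves from the highest at 545 and 632 TPM to the lowest at 10.2 and 10.7 TPM, and lies near Cct8 on the third scale.

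The SD of log2 TPM over the 8 genes was 1.438 in replicate 1 and 1.502 in replicate 2, and 0.74 and 0.81 over the 7 without Cct4, the most extreme gene on this scale. On coding transcripts the same values were 1.13 and 1.23 with Cct4 and 0.96 and 1.09 without it. Other complexes that take 1 product per position were measured the same way, with no gene set aside. The 7 alpha subunits of the proteasome, the cell's main protease, spread by 1.40 and 1.38, and its 7 constitutive beta subunits by 1.32 and 1.40. Mcm2-7, the replicative helicase, spread by 1.15 and 1.04. Prefoldin was the widest at 2.39 and 2.40. On coding transcripts all 8 TRiC genes spread less than the alpha ring, at 1.40 and 1.55, and the beta ring, at 1.37 and 1.39, and more than Mcm2-7, at 1.03 and 0.99. In CPM TRiC spread by 1.05 and 1.13 and Mcm2-7 by 1.08 and 1.07, so their order differed between the libraries. Each complex has 6 to 8 genes, and no test was made.

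**Figure D5:**
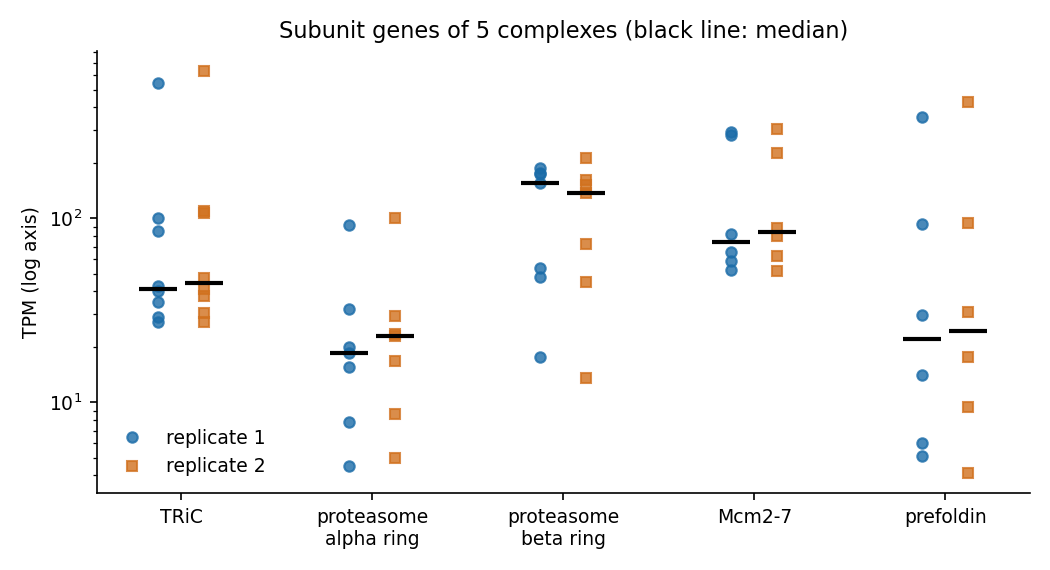
TPM on a log axis of each gene of TRiC, the proteasome alpha and beta rings, Mcm2-7 and prefoldin in both libraries, with the median as a black line. TRiC medians are 41.5 and 44.4 TPM, between the alpha ring at 18.6 and 22.8 and the beta ring at 156 and 137.

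Between the libraries, none of the 8 subunits was over 2-fold apart with separate TPM intervals, where 4.95% of 13546 genes passing the count filter were. Each subunit had 1623 counts or more, and of the 5265 genes with as many in both libraries 0.703% were, so a count of 0 among 8 genes sets the subunits apart from neither. In TMM-scaled CPM, which corrects for library composition, the log2 difference of replicate 1 minus replicate 2 ran from -0.23 for Cct6a to 0.14 for Cct5, with 4 genes higher in each library. The median absolute difference was 0.09 for the subunits, 0.25 for all genes and 0.18 for those with as many counts. On TPM, 5 subunits (Cct3, Cct4, Cct6a, Cct7 and Cct8) had separate intervals with the higher value in replicate 2, against 33.8% of all 13546 genes. Tcp1 alone had its in replicate 1, against 19.1%. Both shares are over genes of all depths, and neither was computed for genes with as many counts. On log2(TPM + 1) 39.6% of the 13546 genes were higher in replicate 1. In either direction 6 subunits had separate intervals, as did 73.7% of the 5265 genes with as many counts. Cct3 and Cct5 differed in direction by scale, being higher in replicate 2 by TPM and, by 0.07 and 0.14, in replicate 1 on log2 TMM-scaled CPM. Heat shock genes, which respond to unfolded protein, summed to 8286 TPM in replicate 1 and 5082 in replicate 2. The genes did not all go the same way: by TPM 6 were higher in replicate 1 and 5 in replicate 2. In TMM-scaled CPM 8 were higher in replicate 1 and 3 in replicate 2. Hspa1a, an inducible Hsp70, stood at 1329 and 242 TPM and Hspa1b at 1978 and 423. Of the 11 heat shock genes 3 were over 2-fold apart, all higher in replicate 1, and their part in the subunit values was not tested.

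The related chaperonin genes were low. Cct6b, the testis form of the zeta subunit, stood at 0.02 and 0.20 TPM and Cct8l1, a theta-like gene, at 0 counts in both libraries. Mkks, Bbs10 and Bbs12, chaperonin-like genes that act in assembly of the ciliary BBSome, stood at 1.34 and 1.42, 0.18 and 0.20, and 0.14 and 0.06 TPM. Only Mkks of these 5 was detected, against 46.9% of protein-coding genes, and on coding transcripts alone it measured 0.57 and 0.43 TPM. The mitochondrial chaperonin Hspd1 measured 62.8 and 70.4 TPM and its lid Hspe1 75.00 and 78.26.

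Genes that feed or assist TRiC were largely present, beside 46.9% detected among all protein-coding genes. All 6 prefoldin genes were detected, in an uneven order: Pfdn6 at 355 and 427 TPM, Pfdn1 at 93.4 and 93.9, and Pfdn5 at 29.9 and 31.1, with Pfdn2 at 14.0 and 17.7. Vbp1, the prefoldin gene also known as Pfdn3, stood at 5.99 and 4.12 TPM and Pfdn4 at 5.11 and 9.47. Of the prefoldin-like complex, 4 of 4 genes were detected, led by Pdrg1 at 63.7 and 83.1 TPM. Among the phosducin-like proteins, which help load TRiC clients, Pdcl3 stood at 33.4 and 46.9 TPM and Pdcl, which aids G protein beta subunits, at 10.5 and 16.6. On coding transcripts alone Pfdn5 measured 11.8 and 15.2 TPM and Pdrg1 21.2 and 26.0. Txndc9 stood at 2.55 and 2.87 TPM and Pdcl2 at 0 counts.

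Most of the listed client genes were detected. Of all protein-coding genes 46.9% were detected, but that share is no matched background. The client lists were chosen by name, do not hold whole gene families, and were made with earlier results of these data known. Of 16 actin and tubulin genes, 14 were detected, with a median of 34.4 and 32.0 TPM. Actb was listed at 3503 and 2625 TPM and Actg1 at 998 and 952, followed by Tubb4b at 516 and 382 and Tuba1b at 313 and 348. Tubb1, the beta tubulin of platelets, had 3 and 2 counts, and Tubb4a 0.17 and 0.61 TPM. All 6 tubulin cofactor genes, which take over tubulin after TRiC, were detected, from Tbce at 2.55 and 3.12 TPM to Arl2 at 66.5 and 55.9. Of 17 other known or proposed clients, 16 were detected. Rack1 was listed at 5000.4 and 4382 TPM, the G protein beta subunit Gnb2 at 459 and 452, and the cell cycle regulator Cdc20 at 125.0 and 93.8. As with Cct4, several clients were lower on coding transcripts alone: Rack1 at 434 and 392 TPM, Gnb2 at 263 and 250.4, Actb at 1959 and 1520, Actg1 at 351 and 248, and Tubb4b at 292 and 261. The cofactor gene Tbce was then at 0 and 0.84 TPM. Gnb5, at 0.55 and 1.32 TPM, was the client below the detection level. Several of these, such as Actb and the tubulins, have near-identical relatives whose reads the authors' estimate divides.

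Sequence shared with other genes in the same orientation was slight in the subunits. Overlaps with genes on the other strand are not in this count and are given below. Runs of 50 bases of each subunit's longest coding transcript were sought in the same orientation in any transcript of another gene. Shared runs made up 2.13% of Cct3, 1.34% of Cct7, 0.657% of Cct4 and 0.250% of Tcp1, and none of Cct2, Cct5, Cct6a or Cct8. The genes sharing them were 6 processed pseudogenes, copies of spliced messages put back in the genome. Gm11516 and Cct3-ps1 matched Cct3, Gm15495 matched Cct4, Gm5380 and Gm3131 matched Cct7, and Tcp1-ps1 matched Tcp1. The 5 listed in the files had 0 counts, and Gm3131 was not analysed here. Over the 7 subunits with a reading frame in GENCODE M21, coding regions ran from 1605 bases in Cct2 to 1668 in Tcp1, over 11 to 16 exons.

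The starts of 6 of the 8 genes lay within 1 kb of the start of a gene on the other strand, where 28.2% of detected protein-coding genes have such a neighbour. The strongest neighbour was Mrpl18, a mitochondrial ribosomal protein gene next to Tcp1, at 85.3 and 85.8 TPM. Pradc1 beside Cct7 stood at 27.1 and 22.5, Psph, the serine synthesis phosphatase, beside Cct6a at 13.0 and 19.8, and Fam173b beside Cct5 at 5.10 and 4.55. Tsacc beside Cct3, 0.44 and 1.67 TPM, and B130034C11Rik beside Cct8, 0.31 and 0.02 TPM, were low. Cct2 and Cct4 had no such neighbour. Annotated exons overlapped in 4 subunits, and the share of all genes with such overlap was not computed, so the count has no background. Cct7 shared 214 bases with Pradc1, Cct8 192 with Usp16 (24.1 and 27.2 TPM) and Tcp1 141 with Mrpl18. The transcript of Cct6a in the files shared 11 bases with Psph. Tcp1 also shared 571 bases with Acat3, at 0.48 and 0.25 TPM. The small nucleolar RNA genes Gm26130 in Tcp1 and Snora15 in Cct6a had 0 counts. The sources used here do not state how strand was handled, so reads in these stretches cannot be assigned with certainty.

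RefSeq promoter windows on GRCm38.p6, from 250 bases before to 50 after a start, were given for 7 of the 8 genes, 9 windows in all, since Cct2 and Cct5 had 2 each. Searched on both strands, the Sp motif GGGCGG was in 8 of the 9 windows, against 35.7% of 32851 windows in the table, and the Ets motif CCGGAA in 5, against 14.9%. The heat shock motif was sought as GAANNTTC, found in 1 of the 9 and 7.86% of all windows, and as TTCNNGAA, found in 2 and 8.52%. The Nrf1 motif TGCGCA was found in 3 of the 9, against 7.76%, and CCAAT in 4, against 37.4%. TGACGT, bound by Creb and Atf factors, was in 1 of the 9 and 7.51% of all windows, and neither CACGTG (7.15% of windows) nor TATAAA (13.6%) was in any of the 9. A match shows only that these letters are in the window. GC content ran from 47.3% to 67.7%, with a median of 60.3% against 52.7% for all windows.

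The 5 protein-coding genes nearest the subunit median on log2(TPM + 1), by Euclidean distance over the 2 libraries, were Dpp3, Arrb1, Emc4, Iffo1 and Urod. Urod, a heme synthesis enzyme, measured 40.9 and 44.8 TPM. The measure ranks genes by level only, over 21467 genes.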

How the data were processed

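Poly(A) RNA-seq of 2 MEP libraries was analysed. Per the labels the build was mm10, and text files beside the tables name GENCODE M4 as annotation. The sources used here name no aligner, quantifier or strand setting. Per the file headers, the tables hold expected counts estimated by the authors for genes and transcripts. They also hold deposited TPM, which corrects counts for effective length and sums to 1000000, and deposited FPKM. The deposited percent column is the share of a gene's TPM in a transcript. The authors' TPM intervals have no stated level.

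Identifiers without version were matched to GENCODE M21 for symbols, types and GRCm38 coordinates. Library differences used edgeR 4.0.16 (R 4.3.3) on counts rounded to integers, TMM factors, filterByExpr and a prior count of 2, and DESeq2 1.42.0 for other size factors. Other steps used Python 3.11.15, pandas 2.3.3, numpy 2.4.6 and scipy 1.17.1. The library difference was tested on simulated data. Coding transcripts are those GENCODE M21 types as protein-coding, or a gene's only transcript; CPM per kilobase was added after seeing the data.

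With 1 group no test between conditions was possible. Of longer lists, the 4 highest and 2 lowest genes by mean TPM and the 2 most different between libraries at 5 TPM or more could be named, with all members of the short lists, overlapping and neighbouring genes, and the 5 genes nearest the median. The members and lists were chosen with earlier results of these data known. No molecular identifiers are mentioned, so intervals and floors cover counting error only. Protein sequences were not used here.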

Additional observations from a re-analysis of the deposited data

How the results depend on the processing

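The median subunit level, 43.0 TPM, was 35.2 in FPKM and 33.8 on coding transcripts only, and 41.5 to 44.4 with 1 library left out. Pairs apart numbered 24, with 18 when over 1.5-fold was also asked and 17 at 2-fold, and 26 to 27 with 1 library left out. Pairs were not called on coding transcripts only. By CPM, which is not corrected for length, all 28 pairs had the same direction in both libraries, a looser rule that asks for no interval. The SD of log2 TPM over subunits, taken in each library and then averaged over the 2, was 1.47. That average was 1.09 in CPM, 1.18 on coding transcripts, and 1.03 in CPM per kilobase, which was added after seeing the data. With 1 library left out the SD was 1.438 to 1.502. The log2 level of Cct4 over the subunit median, 3.77, became -1.69 on coding transcripts only, where the transcripts left out include the 2 that held 97.1% and 97.0% of its TPM. The median log2 difference of the subunits between libraries, 0.03, was -0.13 on log2(TPM + 1), and the cause was not tested. Over all 13546 genes passing the count filter the median also moved, from 0.002 to -0.07. No subunit was over 2-fold apart under any of 5 alternatives. Of the 60 related genes the 52 detected became 53 at a TPM of 0.5 and 44 at 5, and 52 to 53 with 1 library left out. Subunits led by a transcript that GENCODE M21 types as protein-coding numbered 5 by TPM and 6 by counts, with Cct6a not among them because its single transcript has another type. No paired analysis was possible because there is 1 group. At these depths the subunits had 1623 counts or more each.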
